A study of Mus musculus with 2 samples.

Results

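The cardiac and skeletal muscle microRNAs are a set of 9 genes that give the microRNAs best known from striated muscle: Mir1a-1, Mir1a-2, Mir133a-1, Mir133a-2, Mir133b, Mir206, Mir208a, Mir208b and Mir499. They were chosen by name and not by a measured value, although earlier results of these data were known when they were chosen. Of the 1973 microRNA genes counted, 8 are members of the set, and no counted gene carried the identifier of Mir1a-2. The tissue was hindbrain, taken from B6NCrl mouse embryos of 13.5 days with male and female embryos pooled. The embryos were described as healthy, and the labels name no transgene, allele or treatment. RNA below a size limit of 30 nt was sequenced in 2 biological replicates, replicate 1 and replicate 2, which make up 1 group. Both libraries carry the same donor identifier and different biosample identifiers, and no label ties them to different litters. Part of their spread may be technical, and the labels cannot settle how much.

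MicroRNAs are short RNAs cut from hairpin precursors that lower the output of messenger RNAs matching their seed, the bases 2 to 8 counted from the 5′ end. In striated muscle the mir-1 and mir-133 hairpins are made from shared transcripts in heart and skeletal muscle, while mir-206 and mir-133b come from a locus that is active in skeletal muscle. The hairpins of mir-208a, mir-208b and mir-499 sit inside introns of myosin heavy chain genes, and so can follow the myosin type of the fibre. Myh6 is the alpha and Myh7 the beta cardiac myosin, the latter shared with slow skeletal fibres. The RNA of these host genes was not measured here. Hindbrain holds no striated muscle of its own. In the nervous system miR-206 is known from the muscle side of the neuromuscular junction and as a regulator of Bdnf.

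The mature microRNAs of the 5 members with any count are shown because their seeds set the families and their similarity sets which reads can be told apart. Of the 9 members, 6 had mature entries in the RefSeq table for GRCm38.p6. Capitals mark the seed, and each sequence reads 5′ to 3′.
miR-206-3p (Mir206), chr1:20679055-20679076, plus strand: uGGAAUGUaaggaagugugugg
miR-133b-3p (Mir133b), chr1:20682834-20682855, plus strand: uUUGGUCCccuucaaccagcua
miR-208a-3p (Mir208a), chr14:54949072-54949093, minus strand: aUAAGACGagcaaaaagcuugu
miR-208b-3p (Mir208b), chr14:54975710-54975731, minus strand: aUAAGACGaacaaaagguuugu
miR-499-5p (Mir499), chr2:155622893-155622913, plus strand: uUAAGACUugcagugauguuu

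Mature miR-208a-3p and miR-208b-3p had the same seed, shared with no other gene of the table, and were identical at 19 of 22 positions. The 3 differences, written with the miR-208a base first and positions from its 5′ end, were G10A, A16G and C18U. The seed of miR-499-5p matched both over bases 2 to 7 and departed from miR-208a at G8U, the last seed base. The longest stretch of miR-208a-3p found in any other microRNA hairpin was 10 nt, against 9 nt for miR-208b-3p, 11 nt for miR-499-5p and 12 nt for miR-206-3p. By contrast, miR-133b-3p had 21 of its 22 nt in both Mir133a hairpins. Among microRNA hairpins, a read of either mir-208 can therefore be told apart by these letters, whereas a miR-133b read that lacks its last base cannot.

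The loci fall into 2 kinds. Mir208a (ENSMUSG00000065432.1, hairpin chr14:54949060-54949142) lies in an intron of Myh6 and Mir208b (ENSMUSG00000077928.1, chr14:54975700-54975776) in an intron of Myh7, 26558 bp away on the same strand. Mir499 (ENSMUSG00000076312.1, chr2:155622880-155622958) lies in an intron of Myh7b, a further myosin heavy chain gene. Mir206 (ENSMUSG00000065559.1, chr1:20679010-20679082) and Mir133b (ENSMUSG00000065480.1, chr1:20682769-20682887) both overlap exons of the long non-coding RNA gene Gm28653 and are 3687 bp apart. Mir1a-1 (ENSMUSG00000070144.1, chr2:180389048-180389124) and Mir133a-2 (ENSMUSG00000065460.1, chr2:180398379-180398482) are intergenic in this annotation and 9255 bp apart. The second copies, Mir133a-1 (ENSMUSG00000065399.1) and Mir1a-2, lie 2505 bp apart in introns of the host transcript Mir133a-1hg, antisense to an intron of Mib1. All coordinates are of GRCm38, which mm10 also names.

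The depth was 3006571 microRNA gene reads of the annotated strand in replicate 1 and 4508244 in replicate 2. A level in CPM is a gene's count per 1000000 such reads, and brackets hold its exact Poisson 95% interval. These intervals, like the other intervals below, cover counting error only. Each read stands for 1 mature strand of about the same length, so no length correction was made between members. Whether each sequence was captured equally well was not tested, so ratios between members within a library are ratios of reads. As a check of the tissue, the 6 microRNA genes of the Hox clusters summed to 111478 CPM in replicate 1 and to 135699 CPM in the other library. Most of the sum came from Mir10a and Mir10b, with mean levels of 84053 and 37089 CPM. These clusters mark both hindbrain and trunk, so the sum cannot tell the 2 apart. The 17 neuronal genes with a count row summed to 11788 and 11884 CPM, although the copies of Mir124a, usually abundant in neurons, were at 5.10 CPM or less each. Reads that match several copies would be multimapping and counted for no gene, so these values do not give the level of mature miR-124.

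Among uniquely placed reads the muscle set was low. Its 8 counted genes summed to 152 CPM in replicate 1 [138 to 167] and to 90.1 CPM in replicate 2 [81.5 to 99.3], a mean of 121 ± 43.8 CPM (SD, n = 2), or 0.0152% and 0.00901% of the counts. With at least 10 counts in both libraries, 3 of the 8 were detected, Mir208b, Mir206 and Mir208a, beside 18.0% of all counted genes. The 3 stood at places 231, 245 and 312 of the 356 detected genes in order of mean level, all below the median of detected genes, 166 CPM. Mir499 missed that limit by 1 count, Mir133b had single-digit counts, and the remaining 3 had none. No member had a read on the opposite strand in either library, while 1.88% and 1.90% of all microRNA gene reads lay there.

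**Figure D1:**
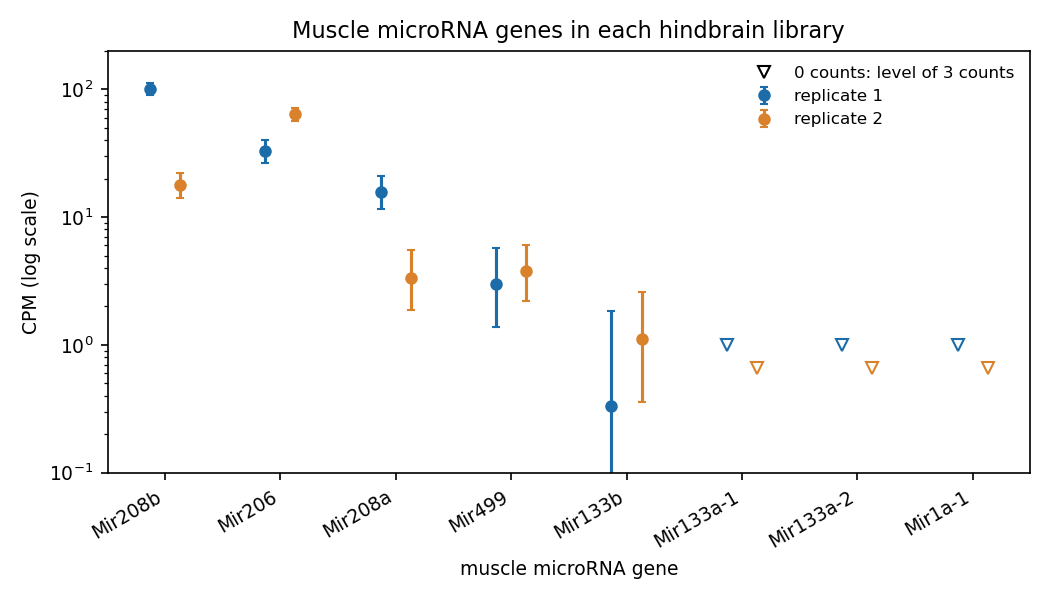
CPM (log scale) of the 8 counted muscle microRNA genes in replicate 1 (blue) and replicate 2 (orange), with exact Poisson 95% intervals as bars; open triangles stand at the level of 3 counts for genes with 0 counts. Mir208b and Mir208a are lower in replicate 2, Mir206 is higher there, and the intervals of Mir499 and Mir133b overlap between the libraries.

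Among the myosin-gene microRNAs, Mir208b, the partner of the beta myosin gene Myh7, was the highest member in replicate 1, with 302 counts or 100 CPM [89.4 to 112]. In replicate 2 it had 80 counts or 17.7 CPM [14.1 to 22.1]. The 2 intervals lie far apart, and replicate 1 was 5.71-fold higher (interval 4.45 to 7.40). Folds and log2 ratios of single genes, here and below, use trimmed-mean (TMM) library sizes. They therefore depart slightly from ratios of the CPM values. Mir208a, the partner of the alpha myosin gene Myh6, had 47 counts or 15.6 CPM [11.5 to 20.8] in replicate 1 and 15 counts or 3.33 CPM [1.86 to 5.49] in replicate 2. This was 4.74-fold higher in replicate 1 (interval 2.60 to 9.13), so both mir-208 genes stood high in replicate 1 and low in replicate 2 by similar factors. The mean levels were 59.1 ± 58.5 CPM for Mir208b and 9.48 ± 8.70 CPM for Mir208a (SD, n = 2), errors close to the means themselves.

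The balance between pairs of members can be compared without regard to scaling, which was done for 6 pairs, with intervals not adjusted for their number. Mir208b had 6.43 reads for each read of Mir208a in replicate 1 (exact binomial 95% interval 4.71 to 8.93) and 5.33 in replicate 2 (3.05 to 9.97). The conditional odds ratio of replicate 2 over replicate 1 was 0.830, with an exact interval of 0.429 to 1.68. Thus the beta myosin partner had more reads than the alpha myosin partner in each library. At this depth a shift of that balance in replicate 2 of up to 2.33-fold towards Mir208a or 1.68-fold towards Mir208b could not be told from none.

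Mir499, the myosin-gene member in Myh7b whose seed is nearest to that of mir-208, had 9 counts or 2.99 CPM [1.37 to 5.68] in replicate 1 and 17 counts or 3.77 CPM [2.20 to 6.04] in replicate 2. Its intervals overlap almost wholly, with a log2 ratio of replicate 2 over replicate 1 of 0.32 (interval -0.93 to 1.67). Its mean was 3.38 ± 0.550 CPM (SD, n = 2). Set against Mir499, Mir208b gave 33.6 reads per read in replicate 1 (interval 17.4 to 74.1) and 4.71 in replicate 2 (2.76 to 8.48), a 7.08-fold change of their balance with an exact interval of 2.86 to 18.8. The microRNAs of the 3 myosin genes therefore did not keep 1 proportion across the libraries. Over the family of bases 2 to 7, Mir208a, Mir208b and Mir499 summed to 119 CPM in replicate 1 and 24.8 CPM in replicate 2.

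Of the mir-1, mir-206 and mir-133 genes, Mir206, the skeletal muscle relative of mir-1, was the only one detected. It had 98 counts or 32.6 CPM [26.5 to 39.7] in replicate 1 and 289 counts or 64.1 CPM [56.9 to 71.9] in replicate 2, a mean of 48.4 ± 22.3 CPM (SD, n = 2). It was low in replicate 1 and high in replicate 2, the opposite of the mir-208 genes, by 1.95-fold (interval 1.54 to 2.48). Mir133b, which overlaps the same non-coding gene, had 1 count or 0.333 CPM [0.00842 to 1.85] and 5 counts or 1.11 CPM [0.360 to 2.59]. There were thus 98 reads of Mir206 for 1 of Mir133b in replicate 1, with an interval from 17.2 upwards, and 57.8 for 1 in replicate 2 (interval 24.5 to 179). Reads of miR-133b that also match the Mir133a hairpins over 21 nt may have been set aside as multimapping, so its counts, and this ratio, are uncertain.

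Mir1a-1, Mir133a-1 and Mir133a-2 had 0 counts in both libraries, which allows up to 0.998 CPM in replicate 1 and 0.665 CPM in replicate 2 for reads placed on 1 locus, taking 3 counts as the limit of a count of 0. The exact Poisson intervals end at 1.23 and 0.818 CPM. These zeros do not give the level of mature miR-1a or miR-133a. Mir1a-1 shared 9 of its 58 stretches of 20 nt with Mir1a-2, and Mir133a-1 shared 17 of its 49 with Mir133a-2 or Mir133b, while Mir206, Mir208a, Mir208b and Mir499 shared none with any hairpin. Multimapping reads, which were counted for no gene, made up 33.9% of all reads in replicate 1 and 34.5% in replicate 2, and how many of them are miR-1a or miR-133a was not analysed here. Each of the 4 members with no shared stretch had counts in both libraries. Of the 4 counted members with a shared stretch, Mir133b alone had any. Over all 1894 counted hairpins with a sequence 48.7% shared a stretch, and over detected genes 22.5% did.

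Mir1b, which is annotated across Mir1a-2 on the other strand, had 10 counts in replicate 1 and 3 in replicate 2 on its own strand. It missed the detection limit, and its log2 ratio of replicate 2 over replicate 1 was -2.33 (interval -4.83 to -0.38). On the strand of Mir1a-2 the footprint of Mir1b held 1 read in each library. Of the Mir1a-2 hairpin, then, almost no uniquely placed read was listed.

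The make-up of the muscle counts was turned over between the libraries. Mir208b gave 66.1% of the muscle counts in replicate 1 and 19.7% in replicate 2, and Mir208a 10.3% and 3.69%. Mir206 gave 21.4% and 71.2%. In direct comparison, Mir206 had 0.325 reads for each read of Mir208b in replicate 1 (exact interval 0.256 to 0.409) and 3.61 in replicate 2 (2.81 to 4.69). The balance between Mir206 and Mir208b so differed 11.1-fold between the libraries, with an exact interval of 7.84 to 15.8. For Mir206 against Mir208a the odds ratio of replicate 2 over replicate 1 was 9.19 (4.80 to 18.5). Against Mir499 it was 1.56 (0.592 to 3.84), which could not be told from no change. Since tissue was sequenced in bulk, fewer cells of a type and less RNA per cell cannot be told apart.

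**Figure D2:**
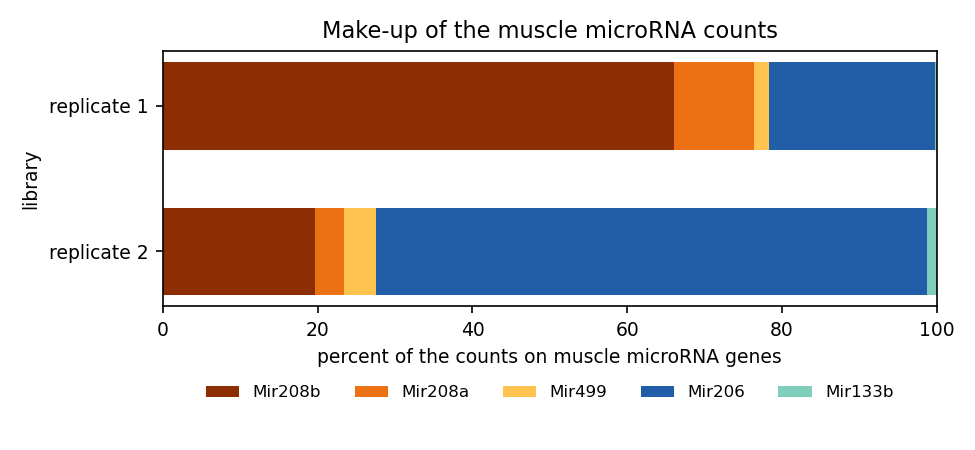
Percent of the counts on muscle microRNA genes that each member gave, as stacked bars for replicate 1 and replicate 2. Mir208b holds 66.1% of the bar in replicate 1, and Mir206 holds 71.2% of it in replicate 2.

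Across all detected genes, the libraries were close, which places the muscle genes at the edge of the spread. Ratios here use trimmed-mean (TMM) library sizes. The 356 log2 ratios of replicate 2 over replicate 1 had a median of 0.01, a median size of 0.17 and an SD of 0.39. Mir208b at -2.51 (interval -2.89 to -2.15) and Mir208a at -2.25 (-3.19 to -1.38) were the lowest and second lowest of the 356, and Mir206 at 0.96 (0.63 to 1.31) was the third highest. The median of the 3 members was -2.25. In the other direction, the highest ratio of any gene was 1.05.

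Beyond 2-fold lower in replicate 2 were 2 of the 3 detected members, against 1.97% of detected genes, 7 in number, and none of the 3 was beyond 2-fold higher, against 0.562%. An exact binomial test (two-sided, Benjamini-Hochberg adjusted over the 356 genes) sets 1 library against the other, not 1 condition against another, and allows for counting error alone. It called Mir208b (adjusted p 7.64e-54) and Mir208a (5.87e-08) lower in replicate 2, where it called 22.8% of all detected genes, and Mir206 (1.37e-08) higher, where it called 22.5%. Calls by this test are therefore common and say little about the members. With edgeR's exact test at the common spread estimated from the same libraries, a biological coefficient of variation of 0.141, the adjusted p was 1.68e-10 for Mir208b, 0.00109 for Mir208a and 0.191 for Mir206. It called 1.12% of the 356 genes lower and 0.281% higher in replicate 2. That test sets 1 library against 1, and its spread comes from the differences under test, so it ranks genes and has no replicate check.

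**Figure D3:**
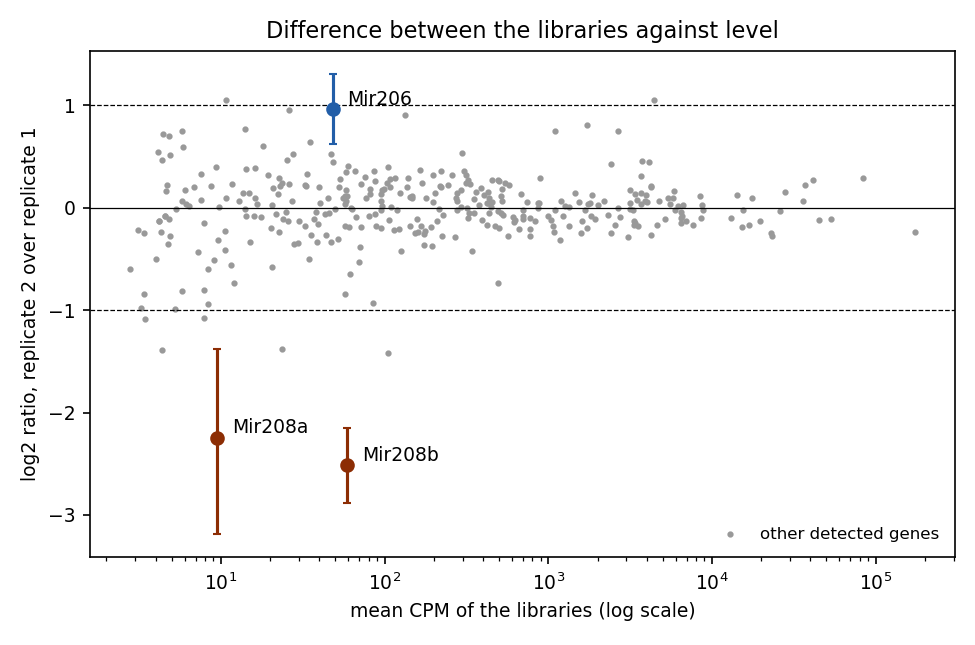
The log2 ratio of replicate 2 over replicate 1 against the mean CPM (log scale) of the 356 detected genes; grey points are other genes, coloured points are the 3 detected muscle genes with exact 95% counting intervals, and dashed lines mark 2-fold. Mir208b at -2.51 and Mir208a at -2.25 lie below every other detected gene, and Mir206 at 0.96 lies near the upper edge.

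Other genes of like level, members aside, were taken within 1.5-fold of each member's mean CPM, a range chosen after the values were seen. Of 43 such genes around Mir208b none was beyond 2-fold, with log2 ratios from -0.93 for Mir429 to 0.52 for Mir27a. Of 44 around Mir206 none was either, from -0.84 for Mir200c to 0.64 for Mir34b, so that Mir206 lay above them all. Of 26 around Mir208a, 1 was beyond 2-fold lower and 1 higher, Mir5626 at -1.07 and Mir504 at 1.05. The 4 detected genes next to Mir208b in mean level, Mir222, Mir326, Mir194-2 and Mir18b, had log2 ratios from -0.18 for Mir222 to 0.41 for Mir326. Those next to Mir206, namely Mir539, Mir1981, Mir6236 and Mir302c, ran from -0.33 for Mir302c to 0.44 for Mir6236. Around Mir208a, Mir1969, Mir486, Mir294 and Mir3075 ran from -0.51 for Mir3075 to 0.40 for Mir294.

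In the direction and size of the difference, the genes most like Mir206, among those with at least 100 counts on average and measured only by the distance of their log2 ratios over the 2 libraries, were Mir196b of the HoxA cluster at 0.95, Mir1264 at 0.90 and Mir449a, known from multiciliated cells, at 1.05. Under the same limit of 100 counts, none came near Mir208b or Mir208a. The nearest to both were the erythroid Mir451a at -1.42, then Mir429 at -0.93 and Mir200c at -0.84, both of the epithelial mir-200 family, and these lay 1.09, 1.59 and 1.67 above Mir208b.

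Markers of other cell types differed between the libraries too, none by as much as Mir208b or Mir208a, but Mir451a, Mir200b and Mir449a by more than Mir206. Of the blood genes 5 of 6 had a count row, and they summed to 486 CPM in replicate 1 and 452 CPM in replicate 2. Mir451a, a red cell marker, was at 152 CPM in replicate 1 and 57.5 CPM in replicate 2, while its neighbour Mir144, also erythroid, was at 20.3 and 20.9 CPM and Mir155, Mir223 and Mir150 were higher in replicate 2 in value. All 5 were detected and none was at 0. By value 1 of 5 blood genes was lower in replicate 2, against 49.4% of all detected genes.

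The epithelial list, with 7 of 7 genes detected, summed to 801 CPM in replicate 1 and 688 CPM in replicate 2, with a median log2 ratio of -0.84. By value 6 of the 7 were lower in replicate 2, and 4 passed the exact binomial test. Over all detected genes 49.4% were lower by value, and 22.8% were lower past the test. Mir200b, of the mir-200 family, had the lowest ratio at -1.38, and Mir203, a skin microRNA, the highest level. The mesenchyme and cartilage list summed to 4539 and 3844 CPM, 3 of its 4 detected genes were lower past the test, and its highest members were the cartilage microRNA Mir140 at 3512 ± 292 CPM (SD, n = 2) and Mir214, which the myogenesis-linked list holds too, with a log2 ratio of -0.74. Smooth muscle was represented by Mir143 at 6490 ± 281 CPM and Mir145a at 80.6 ± 2.65 CPM, with log2 ratios of -0.10 and -0.08. Endothelial Mir126a stood at -0.13 and the liver marker Mir122 at 0.20, with 36.9 and 42.8 CPM.

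Higher in replicate 2, with Mir206, were all 6 detected genes of the choroid plexus and multiciliated list, with sums of 4991 and 9694 CPM in replicates 1 and 2. Their median was 0.69, and 4 passed the test. Over all detected genes 49.4% were lower by value, and the test called 22.8% lower and 22.5% higher. All 4 detected Hox cluster genes were higher as well, past the test, with a median of 0.36. The neuronal list had a median of 0.04, with 3 of 13 lower and 4 higher past the test. No counted gene of these marker lists was at 0 in both libraries. In the muscle set 3 of 8 were, or 37.5%, beside 63.7% of all 1973 counted genes. The part of these other cell types in the differences of Mir208a, Mir208b and Mir206 was not tested.

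**Figure D4:**
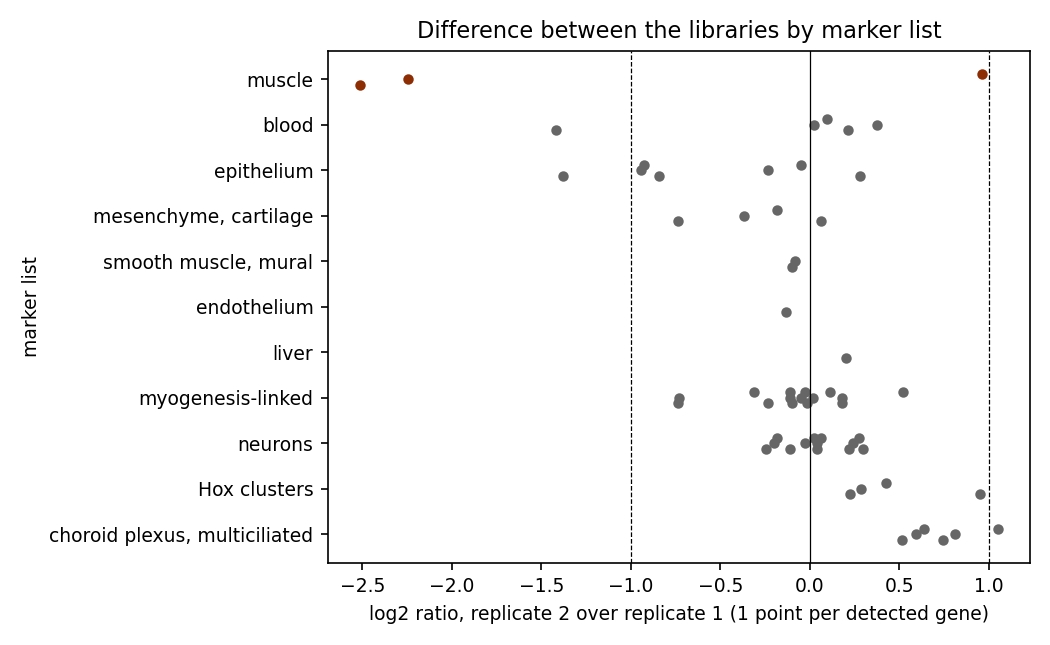
The log2 ratio of replicate 2 over replicate 1 of each detected gene (1 point each) in the muscle set and in 10 marker lists; dashed lines mark 2-fold. Muscle genes lie at -2.51, -2.25 and 0.96, while the myogenesis-linked genes lie between -0.74 and 0.52.

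MicroRNAs that take part in myogenesis but are made in many tissues were far more abundant than the muscle set and differed little. Of 20 such genes 17 had a count row and 15 were detected, and they summed to 16180 and 15168 CPM in replicates 1 and 2. The sum came mostly from Mir322, which promotes cell cycle exit of myoblasts, at 8608 ± 354 CPM, and Mir181a-1 at 5165 ± 241 CPM (SD, n = 2). Mir486, abundant in muscle and red cells, had 10.6 and 8.65 CPM, close to the mean level of Mir208a. By the exact binomial test 4 of the 15 were lower in replicate 2 and 2 were higher. That test called 22.8% of all detected genes lower and 22.5% higher. The median log2 ratio of the 15 was -0.05, beside 0.01 over all detected genes. The largest ratios were -0.74 for Mir214 and -0.73 for Mir675, the microRNA of the H19 transcript. None of the 15 was beyond 2-fold.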

How the data were processed

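The deposited tables, 1 per library, hold raw read counts per microRNA gene. Reads were aligned to mm10 and counted on GENCODE M4 by the authors, per the file headers in the deposited README text. No source used here names the aligner, counter or trimming. Each table has 3 count columns. The first equalled the sum of the others in all 1973 gene rows, and the column with 98.1% of the gene counts, read as the annotated strand, gave all values. Summary rows stayed out of library sizes and tests: 33.9% and 34.5% of reads multimapping, 14.0% and 14.6% unmapped, and 3.15% and 3.39% outside genes on that strand, in replicates 1 and 2.

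Names and loci came from GENCODE M21, which matched 1894 identifiers. The other 79 had at most 1 count in a library, and 1 of them could be Mir1a-2 under another identifier. Mature sequences came from RefSeq (GRCm38.p6). The detection limit was 10 counts, to be met by both libraries. A count of 0 allows up to 3 counts. With 1 group, edgeR's quasi-likelihood test could not be run. The libraries were compared gene by gene with an exact binomial test (two-sided) on TMM library sizes (edgeR 4.0.16, SciPy 1.17.1), threshold 0.05. It was tried on simulated counts with counting error only, as the test itself assumes. That trial cannot show how the test behaves when libraries also differ beyond counting error. Alternatives were other scalings (DESeq2 1.42.0 size factors, totals), detection limits, the either-strand column, all reads as denominator, edgeR's exact test and leaving out a library.

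Genes named besides the members come from a rule: genes within 10 kb of a member or sharing 20 nt with it, the nearest in level (2 above, 2 below) and the 3 nearest in ratio, and the 2 highest and 2 most different of each marker list. Mir124a, Mir144 and Mir150 were added after their values were seen, as were the genes named within 1.5-fold of a member's level. The members and lists were chosen with earlier results of these data known.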

Additional observations from a re-analysis of the deposited data

How the results depend on the processing

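There were 61 alternative values, for results on the muscle genes and for counts over all detected genes. Of these, 55 stayed on the same side of their threshold or within the spread of the libraries. None changed direction. A level with 1 library left out could not leave that spread, since each of 2 values lies within their SD of the mean. Nor could a count of 0 move with the denominator. Such entries are among the 55 and say nothing of robustness. With all reads as the denominator, the summed level was 58.6 CPM in place of 121, since the gene rows hold 49.0% and 47.5% of the reads. Every member with counts fell: Mir208b to 28.8, Mir206 to 23.2, Mir208a to 4.62, Mir499 to 1.63 and Mir133b to 0.345 CPM. Of these, Mir208b, Mir208a and Mir133b stayed within the spread of the libraries only because that spread is wide. Counting a member with 1 read in either library as detected gave 5 members, not 3. At 5 counts in both libraries 20 genes lay beyond 2-fold, not 9. Mir206, at a log2 ratio of 0.96, did not pass edgeR's exact test with the estimated spread (adjusted p 0.191), while its adjusted p ran from 1.02e-08 to 1.79e-08 under the other alternatives. The exact binomial test called 80 genes higher in replicate 2 and 81 lower, against 92 and 77 with gene-row totals and 76 and 84 with DESeq2 size factors.

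Without either library the summed level ran from 90.1 to 152 CPM, and the number of members detected from 3 to 4. The ranges were 17.7 to 100 CPM for Mir208b, 32.6 to 64.1 for Mir206, 3.33 to 15.6 for Mir208a, 2.99 to 3.77 for Mir499 and 0.333 to 1.11 for Mir133b. A ratio cannot be formed without a library. No paired analysis was possible because the libraries form 1 group. Depth limits Mir499 and Mir133b. How many multimapping reads belong to the mir-1 and mir-133 genes was not tested.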
